A study of Mus musculus with 4 samples.

Results

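Notch signalling passes information between touching cells, and 10 of its genes are described here by the openness of their chromatin in embryonic mouse limbs. They are the ligand genes Jag1, Jag2, Dll1 and Dll4, the receptor genes Notch1 and Notch2, and the target genes Hes1, Hey1, Hey2 and Heyl. All 10 were found in the GENCODE M1 annotation, which holds 22350 protein-coding genes on the autosomes and the X chromosome. In the pathway, a ligand on one cell binds a receptor on its neighbour, the receptor's intracellular part is cut free, and that part enters the nucleus and works with the DNA-binding protein RBPJ. Genes of the Hes and Hey families, which encode transcriptional repressors, are classical direct targets. In the limb bud, the pathway is known for the vessel endothelium, for the apical ectodermal ridge, where Jag2 is active, and for the mesenchyme and later the joints and muscle.

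Chromatin accessibility had been measured by ATAC-seq, in which the Tn5 transposase cuts and tags open DNA. Forelimbs and hindlimbs of mouse embryos at E11.5, of the strain c57bl6.J X 129S6.sv, gave 4 libraries. Of these, 2 came from the genotype Mutant (Stop Cassette Insertion) and 2 from Wild Type. The labels name no Cre, transgene or drug in either group, do not say where the cassette was inserted or whether it was on 1 allele or both, and do not give the number of embryos per library. The series title names the Maenli non-coding RNA and engrailed-1. The peak names of the wild-type lists carry a shared replicate number with a sub-number, so the p-values measure only the spread between these samples, which may be technical.

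Each library is represented by a list of peak summits, each 1 base wide with a score. The lists held 79083 and 107827 summits for the stop cassette libraries and 51701 and 68471 for the wild-type libraries, so list length differed between the genotypes. No reads were analysed, and sequencing depth is unknown. Scores were therefore ranked within each list: a percentile of 90 means that 90% of that list's summits score lower, with ties counted equally on both sides. A longer list holds more weak summits and so gives a given strong summit a higher percentile. Over the genes with a summit within 1 kb of an annotated start in all 4 lists, the median difference of the best start percentile, stop cassette minus wild type, was 3.32 as deposited, and -0.0116 after every list had been reduced by score to the length of the shortest. This shift is the baseline for the comparisons of genotype below. No summit had both the same position and the same score in any pair of lists.

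Markers of several cell types were read in the same way. Of 11 limb mesenchyme genes, 8 had a start summit in all 4 lists, and Tbx5 had none in any. Of 8 endothelial genes, 3 did (Kdr, Flt1 and Erg), while the defining genes Cdh5, Pecam1 and Tie1 had none in any list. Best start percentiles were also summed per marker list, and a start that a library did not list adds nothing to its sum. The summed best start percentile of the endothelial list was 190.5 and 282 in the stop cassette libraries and 192 and 234 in wild type. Kdr stood higher in both stop cassette libraries and Flt1 in both wild-type ones, patterns that 41.2% and 4.34% of all genes showed, and Erg overlapped. For 8 blood genes the sums were 413 and 365 in the stop cassette libraries and 159 and 237 in wild type. Gata1, Hbb-y and Epor stood higher in both stop cassette libraries than in both wild-type ones, a pattern that 41.2% of all genes showed. Tal1, the other blood gene held by every list, overlapped. At equal list length the blood sums were 368 and 218, then 159 and 185. Hbb-y and Epor kept that order, which 20.2% of all genes showed there, while Gata1 and Tal1 overlapped. The endothelial sums were then 128 and 119 against 192 and 213, and the surface ectoderm sums 60.5 and 85.1 against 118 and 137. Flt1, Erg and the ectoderm gene Epcam stood higher in both wild-type libraries there, which 19.9% of all genes showed, and Kdr overlapped. Limb mesenchyme gave 319 and 338 against 344 and 541. The endothelial, surface ectoderm and limb mesenchyme sums were thus lower in both stop cassette libraries. Of the 6 limb mesenchyme genes then held by every list, only Twist1 stood higher in both wild-type libraries. None stood higher in both stop cassette ones. Lhx9, which also enters the sum, was at 20.1 in stop cassette replicate 1 and unlisted in replicate 2, with 63.8 and 59.5 in wild type. The muscle precursor and neural sums overlapped there. The marker values at equal length were added once the values were known. As deposited, the sums overlapped between the genotypes for limb mesenchyme (533 and 618, then 344 and 652), surface ectoderm (110.5 and 276, then 118 and 152), muscle precursors (120.2 and 260, then 102 and 126) and neural genes (73.4 and 248, then 129 and 206). Hba-a1, Spi1 and Ptprc had no start summit in any list. None of 6 liver genes had a start summit in any list. Whether the blood markers bear on the differences reported below was not tested. In such bulk samples, fewer cells of a type and less accessibility per cell cannot be told apart.

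The DNA at the target genes is shown first, because RBPJ recognises the letters TGGGAA, and a longer form, GTGGGAA, was searched on both strands. The search covered 501 bp around the centre of each region, a region being summits of the 4 lists extended by 250 bp on each side and merged. The following pieces lie at starts of 3 of the target genes, on the gene's strand. Capitals mark GTGGGAA or TGGGAA, or their reverse complements TTCCCAC and TTCCCA.
Hes1, chr16:30065300-30065396, plus strand: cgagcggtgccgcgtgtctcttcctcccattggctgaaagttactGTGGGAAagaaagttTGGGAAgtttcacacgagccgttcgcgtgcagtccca
Hey2, chr10:30562750-30562870, minus strand: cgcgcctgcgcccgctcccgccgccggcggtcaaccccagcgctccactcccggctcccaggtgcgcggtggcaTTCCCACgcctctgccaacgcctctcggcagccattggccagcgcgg
Heyl, chr4:122916839-122916935, plus strand: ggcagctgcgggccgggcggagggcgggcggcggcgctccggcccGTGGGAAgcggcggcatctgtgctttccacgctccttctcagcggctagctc
In the Hes1 piece the long match lies 81 bp before the annotated start at 956 bp inside the gene, and a TGGGAA follows it. The Heyl match lies 116 bp upstream of its internal start. The Hey2 piece surrounds the strongest summit, 203 bp upstream of the start. Its match falls in a wider window of 701 bp, and the match counted for Hey2 in the 501 bp window lies in the first exon, 14 bp inside the gene.

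A start region held by all 4 lists contained GTGGGAA in 4 of 4 target genes. Hes1 has 2 such regions, and the one by its 5′ end had no match. This count is per gene, while the shares given below are per region. The 4 ligand and receptor genes with a start region held by all 4 lists, Jag1, Jag2, Notch1 and Notch2, had 0 matches in it. The Notch1 region counted here is at the internal annotated start. At the 5′ end of the annotated gene, which only the stop cassette lists held, GTGGGAA is present 34 bp upstream. Among all 12706 regions that lie at coding starts and are held by all 4 lists, 9.21% contained it. The counts at the members were the same with windows of 301 bp and 701 bp, where the shares over all such regions were 5.43% and 13.0%. These 2 further windows were added once the values were known. Over all 36 regions near the 10 genes that every list held, GTGGGAA was present in 10, or 27.8%, against 10.4% of 23864 such regions in the genome. The shorter TGGGAA, which includes the longer form, was present in 20, or 55.6%, against 35.2%. The boxes bound by Hes and Hey proteins were read the same way: CACGTG was found in 4 of the 36 regions (11.1%, against 10.8%), CACGCG in 11 (30.6%, against 19.0%) and CACGAG in 7 (19.4%, against 13.0%). The 36 regions cluster at 10 loci and are not independent, and a match is a description of letters, not a binding site.

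Away from the starts, 16 of the 71 regions that lie at no coding start were held by all 4 lists. Pieces of 4 are shown: that with a GTGGGAA match upstream of Notch1, the strong pair beside Dll4, and a Jag2 region whose rank differed most between the genotypes.
Notch1, 9.17 kb upstream, chr2:26381303-26381399, minus strand: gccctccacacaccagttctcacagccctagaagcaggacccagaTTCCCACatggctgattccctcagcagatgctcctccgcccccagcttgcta
Dll4, 25.5 kb upstream, chr2:119125961-119126081, plus strand: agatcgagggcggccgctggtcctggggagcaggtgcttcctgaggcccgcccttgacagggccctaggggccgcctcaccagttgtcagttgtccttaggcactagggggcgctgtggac
Dll4, 12.3 kb downstream of the start, chr2:119163806-119163926, plus strand: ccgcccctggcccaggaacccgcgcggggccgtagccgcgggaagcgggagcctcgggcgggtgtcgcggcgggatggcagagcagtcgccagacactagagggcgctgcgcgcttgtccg
Jag2, 26.5 kb upstream, chr12:114194117-114194237, minus strand: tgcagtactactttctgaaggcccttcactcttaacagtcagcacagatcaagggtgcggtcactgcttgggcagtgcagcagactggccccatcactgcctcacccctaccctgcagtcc
The capitals again mark GTGGGAA or TGGGAA on either strand. The Dll4 and Jag2 pieces, which are centred on the strongest summit, contain neither form.

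Accessibility at the starts set most target and receptor genes above most ligand genes. A summit within 1 kb of a start was present for 9 and 10 of the 10 genes in the stop cassette lists and for 10 and 8 in the wild-type lists. In all 4 lists it was present for 8 of 10, against 57.5% of all protein-coding genes. The 2 genes that missed were ligands, Dll1 and Dll4. The median of the genes' mean best start percentile was 47.8 for ligands (range 37.9 to 88.3), 81.1 for receptors (73.5 to 88.7) and 79.9 for target genes (54.3 to 97.9). Over all genes held by every list it was 89.7, with quartiles of 79.3 and 95.03, so no class median stood above the median of all genes. The ligand median includes Dll1 and Dll4, averaged over only the lists that held them. The ligands held by every list, Jag1 and Jag2, had means of 88.3 and 46.0, on either side of the other class medians. The classes overlap, because Jag1 ranked with the higher receptor and Heyl with the lower ligands, and no test was made across so few genes.

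**Figure D1:**
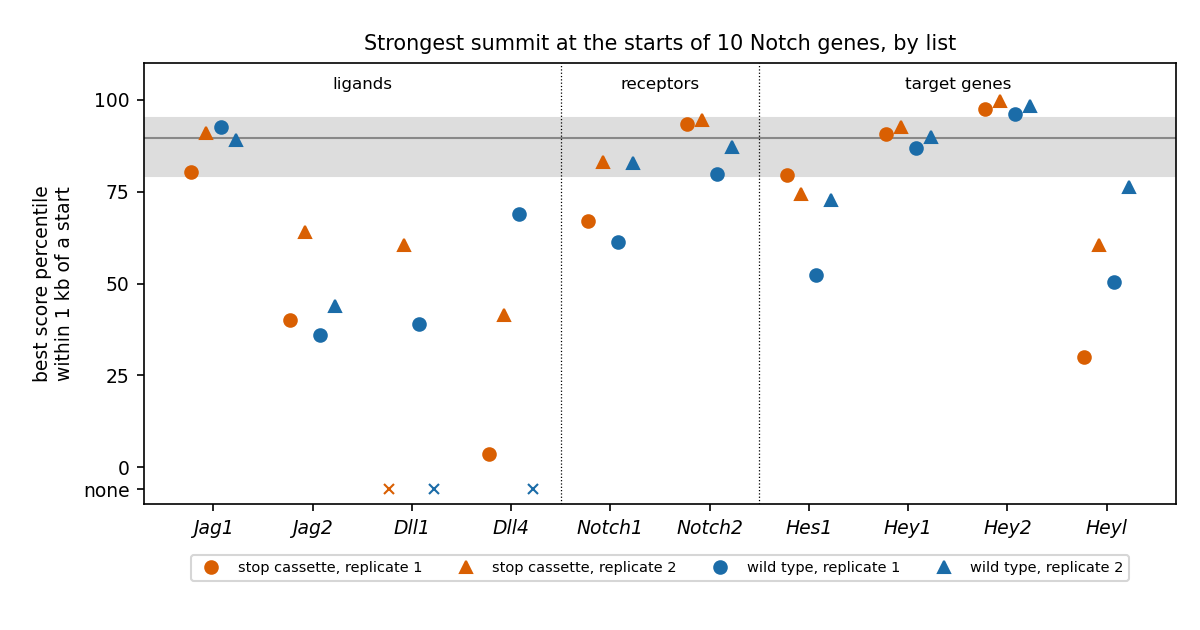
Best score percentile among summits within 1 kb of an annotated start, for each gene (horizontal axis) in each of the 4 lists; crosses at the bottom mark lists with no such summit, and the grey line and band give the median (89.7) and quartiles over all genes held by every list. Hey2 lies above 96 in all 4 lists, and Dll1 and Dll4 lack a summit in some lists.

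Among the ligands, Jag1 had the most accessible start. Jag1 lies on the minus strand at chr2:136907192-136942380 in mm9. Its best start percentile was 80.4 and 91.1 in the stop cassette libraries and 92.5 and 89.2 in wild type, so the groups overlapped. Its strongest start summits lay 875 to 927 bp upstream of the gene's start. Jag2, at chr12:114146801-114167706 on the minus strand, reached only 40.1 and 63.9 in the stop cassette libraries and 36.0 and 44.0 in wild type. That mean, 46.0, is higher than those of only 3.02% of the genes held by every list. The start of Dll1, a ligand of somite and muscle development at chr17:15504318-15513836 on the minus strand, was present in 1 library of each genotype, with 60.5 in stop cassette replicate 2 and 38.9 in wild-type replicate 1. The start of Dll4, the ligand of vessel sprouting at chr2:119151520-119161698 on the plus strand, gave 3.49 and 41.4 in the stop cassette libraries and 68.8 in wild-type replicate 1, with no summit in the other wild-type library. The stop cassette summits at Dll4 lay 634 and 636 bp upstream of the start, and the wild-type summit 69 bp upstream. A summit that is not listed had a score under the authors' threshold, which does not show closed chromatin.

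Both receptor genes were held by every list, but at different places. Notch2, on the plus strand at chr3:97817461-97954290, had its best summit close to its single annotated start, with percentiles of 93.5 and 94.6 in the stop cassette libraries and 79.8 and 87.0 in wild type. Both stop cassette values lie above both wild-type values. Notch1, on the minus strand at chr2:26313423-26372183, had its best summit at an internal annotated start, 12.8 kb inside the gene, with 66.9 and 83.0 in the stop cassette libraries and 61.2 and 82.9 in wild type. These groups overlap. At the 5′ end of the annotated Notch1 gene only the stop cassette lists held a summit, at percentiles of 21.6 and 47.8. The 501 bp at that end are poor in CpG, with an observed-to-expected CpG ratio of 0.239, whereas the region at the internal start had 0.853. The median was 0.870 over the 10 members' 5′ ends and 0.588 over all coding genes.

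Hey2 had the most accessible start of the 10 genes. Hey2, on the minus strand at chr10:30552165-30562607, encodes a transcriptional repressor that acts in vascular and cardiac development. Its best start percentile was 97.4 and 99.8 in the stop cassette libraries and 96.0 and 98.3 in wild type. Its mean is higher than those of 91.4% of the genes held by every list. Hey1, on the minus strand at chr3:8663362-8667039, gave 90.8 and 92.7 in the stop cassette libraries and 86.9 and 89.8 in wild type, which sets it at the middle of those genes, above 51.2% of them. Hes1, a repressor that keeps progenitors undifferentiated, lies on the plus strand at chr16:30064470-30067882. Its values were 79.5 and 74.3 in the stop cassette libraries and 52.4 and 72.6 in wild type, with wild-type replicate 1 below the rest. Hes1 carried a region at its start and another around 774 bp inside the gene, both held by all 4 lists, and the best values come from both. The best summit lay at the inner region except in wild-type replicate 2. At the inner region the wild-type values were 52.4 and 52.3, below both stop cassette values, and at the region by the start they were 39.3 and 72.6 against 71.8 and 72.0, so the groups overlapped. Heyl, on the plus strand at chr4:122910799-122927118, gave 29.95 and 60.5 in the stop cassette libraries and 50.4 and 76.2 in wild type. As at Notch1, these belong to an internal annotated start, 6.20 kb inside Heyl. At the 5′ end of the annotated Heyl gene the values were 15.7 and 55.1 in the stop cassette libraries and 20.7 in wild-type replicate 2. Wild-type replicate 1 had no summit there.

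The genotypes were compared at the 8 starts that every list held. As deposited, 3 of these genes had both stop cassette values above both wild-type values: Notch2, Hes1 and Hey1. This pattern was met by 41.2% of all genes tested, so 3 of 8 is near the background. The reverse pattern was met by 0 of 8, against 4.34%. The first count rose when certain libraries were left out, but no share over all genes was computed for those settings. The differences, stop cassette minus wild type, were 10.6 percentile points for Notch2, 14.4 for Hes1 and 3.35 for Hey1, each with an exact permutation p = 0.3333, two-sided, and an adjusted p = 0.731. With 2 libraries against 2 there are 6 assignments, and 0.3333 is the smallest p that can be reached. The remaining 5 genes overlapped between the genotypes, with differences of -18.0 for Heyl, -5.09 for Jag1, 1.41 for Hey2, 2.91 for Notch1 and 12.02 for Jag2 (exact permutation p = 0.667, adjusted p = 0.899).

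At equal list length, 7 of the genes were still held by every list, and the pattern of the members changed. Notch2 alone stood higher in both stop cassette libraries, against 20.2% of all genes, and Jag1, Jag2 and Hey1 stood higher in both wild-type libraries, against 19.9%. The Notch2 difference was then 8.08 points and the Hes1 difference -0.543. For Jag1 the difference was -13.4 and for Jag2 -14.3, each with an exact permutation p = 0.3333. Notch2 was the one member whose start kept both its direction and its separation of the groups when the lists were cut to the same length. With the mean of all start summits in place of the best, as deposited, the Notch2 difference reversed. No member's start passed at an adjusted p of 0.05, which this design cannot reach.

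**Figure D2:**
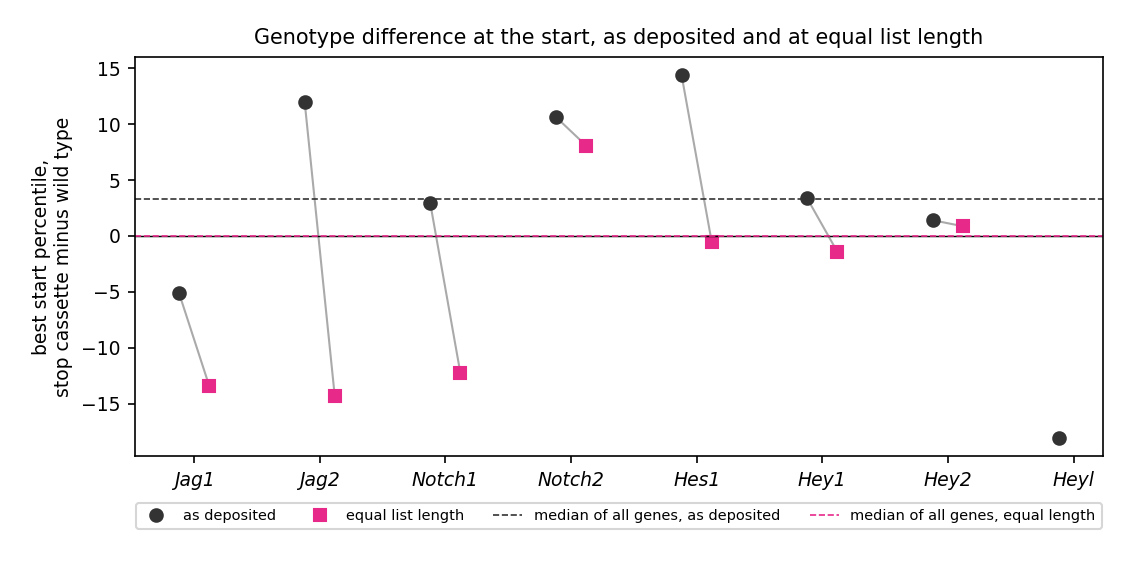
Difference of the mean best start percentile, stop cassette minus wild type (vertical axis, percentile points), for the 8 genes held by every list, as deposited (circles) and at equal list length (squares); dashed lines give the medians over all genes. Jag2, Notch1, Hes1 and Hey1 change sign between the settings, Notch2 stays above both medians, and Heyl is no longer held by every list.

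The surroundings of the genes were then read within 50 kb of the gene body. In the stop cassette lists, and then in the wild-type lists, summits further than 1 kb from a start numbered 11 and 17, then 6 and 10 at Notch1. At Jag2 they numbered 11 and 15, then 9 and 9, and these loci had the highest raw totals. At Heyl they numbered 10 and 15, then 7 and 5. Few summits lay around Dll1, with 2 and 8, then 4 and 4, around Hey2, with 5 and 7, then 4 and 3, and around Jag1, with 5 and 7, then 5 and 3. The windows differ in length: per 100 kb, Notch1 had 6.93 and 10.7, then 3.78 and 6.30, and Heyl had 8.60 and 12.9, then 6.02 and 4.30. At Notch2, wild-type replicate 1 listed a single summit where the other libraries listed 5 to 12. Raw counts were higher in both stop cassette libraries at 7 of 10 genes, but these lists are longer. Over all protein-coding genes the median raw count was likewise 6 and 8 in the stop cassette lists and 4 and 5 in wild type. The share of all genes with this raw pattern was not computed. Hes1 had raw counts of 10 and 11 summits in the stop cassette lists and 5 and 6 in wild type. Per 10000 summits of the list the groups were apart at Hes1 only, with 1.26 and 1.02 in the stop cassette lists and 0.967 and 0.876 in wild type. This is 1 of 10 genes, against 16.9% of all genes with stop cassette higher, and 0 of 10 were apart with wild type higher, against 14.2%. Both counts rose when certain libraries were left out, but no share over all genes was computed for those settings. The Hes1 difference was 0.221 summits per 10000 (exact permutation p = 0.3333, adjusted p = 1), and at equal list length its groups overlapped.

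**Figure D3:**
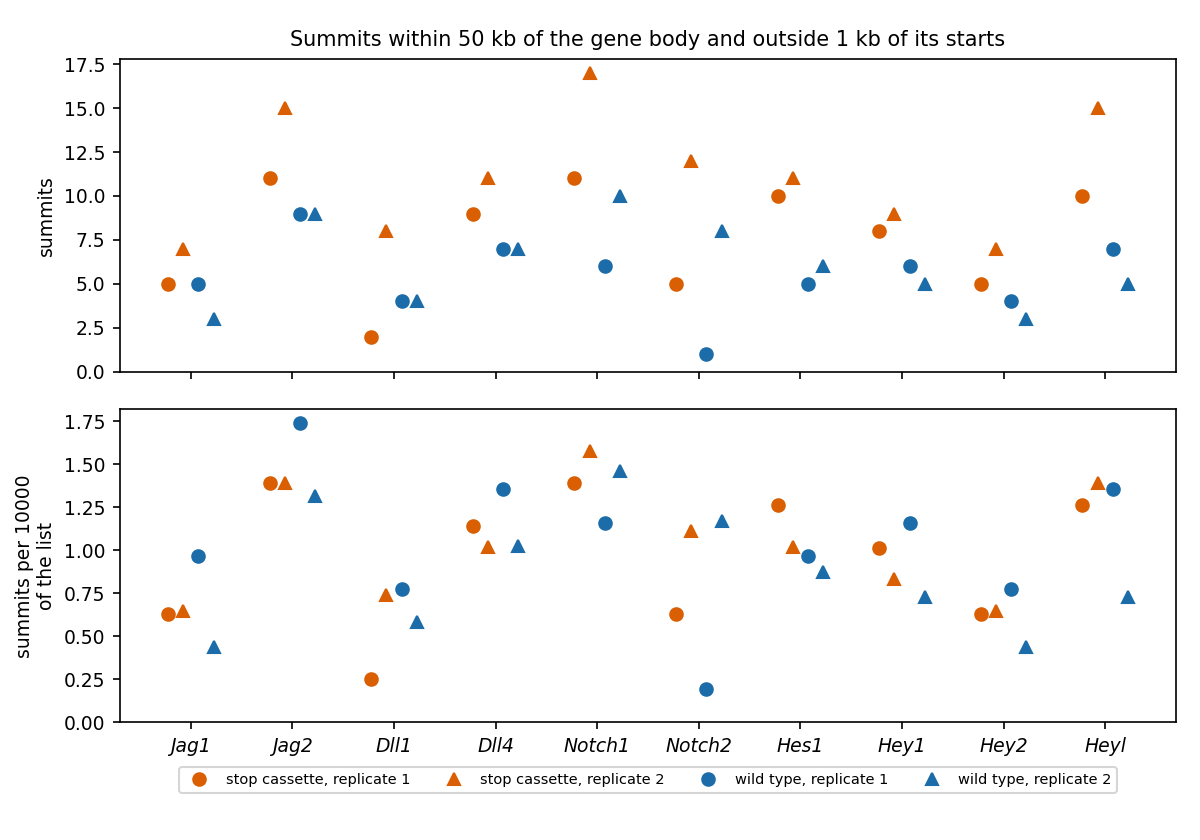
Summits within 50 kb of each gene body and further than 1 kb from its starts, in each of the 4 lists, as numbers (upper panel) and per 10000 summits of the list (lower panel). The stop cassette lists hold more summits at most genes in the upper panel, and after scaling only Hes1 separates the genotypes.

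Merged over the lists, the summits formed 102 regions around the 10 genes. Of these, 36 were held by all 4 lists, or 35.3%, against 32.0% of all 74582 regions. Notch1 had 18 regions and Jag2 13, which per length of window placed them above 93.5% and 92.1% of protein-coding genes, while Hes1, with 11 in a shorter window, stood above 91.8%. By role, 15 of 36 regions at ligands, 5 of 30 at receptors and 16 of 36 at target genes were held by every list. At the receptors, 12 of the 30 regions were listed in 1 library only. Of all 102, 33 came from 1 library, or 32.4%, against 35.4% of all regions, and 24 of these from the longest list, stop cassette replicate 2. Of the 102 regions, 16 lay at a start of a member, 15 at the start of another coding gene and 71 at neither.

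The strongest region of a locus was often a neighbour's promoter. Jag1, Notch2, Hey1 and Hey2 had their strongest region at their own start. At 5 others it lay at the start of another gene, namely Nudt14 beside Jag2, Fam120b beside Dll1, Vps18 beside Dll4, Sec16a beside Notch1 and Pabpc4 beside Heyl. For Hes1, with no other coding start in its window, the strongest region lay 44.1 kb upstream in an exon of the non-coding gene 4632428C04Rik, with percentiles of 67.8 and 82.0 in the stop cassette libraries and 62.5 and 72.5 in wild type.

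Dll4 combined a weak start with strong regions away from any coding start. Its region 25.5 kb upstream reached percentiles of 96.7 and 89.2 in the stop cassette libraries and 74.5 and 86.3 in wild type. The region 12.3 kb downstream of the start, past the gene's end, reached 82.3 and 86.6 in the stop cassette libraries and 80.6 and 90.4 in wild type. Jag2 likewise had a region 21.0 kb upstream, in an exon of the non-coding gene Gm17274, with 83.2 and 92.6, then 82.5 and 94.9. Hey2 had one 31.8 kb downstream of its start, nearer to the start of Ncoa7, with 91.4 and 92.6, then 87.6 and 84.8. Within Jag1, an intronic region 28.8 kb from the start gave 70.2 and 88.9, then 48.3 and 80.5. At Notch1 the one such region lay 9.20 kb upstream, where the score ranks were uneven between libraries at 21.6 and 80.0, then 16.0 and 60.9. Hey1 had regions 42.1 and 18.4 kb upstream, with mean percentiles of 72.5 and 50.9. Distance alone does not show which gene such a region serves.

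**Figure D4:**
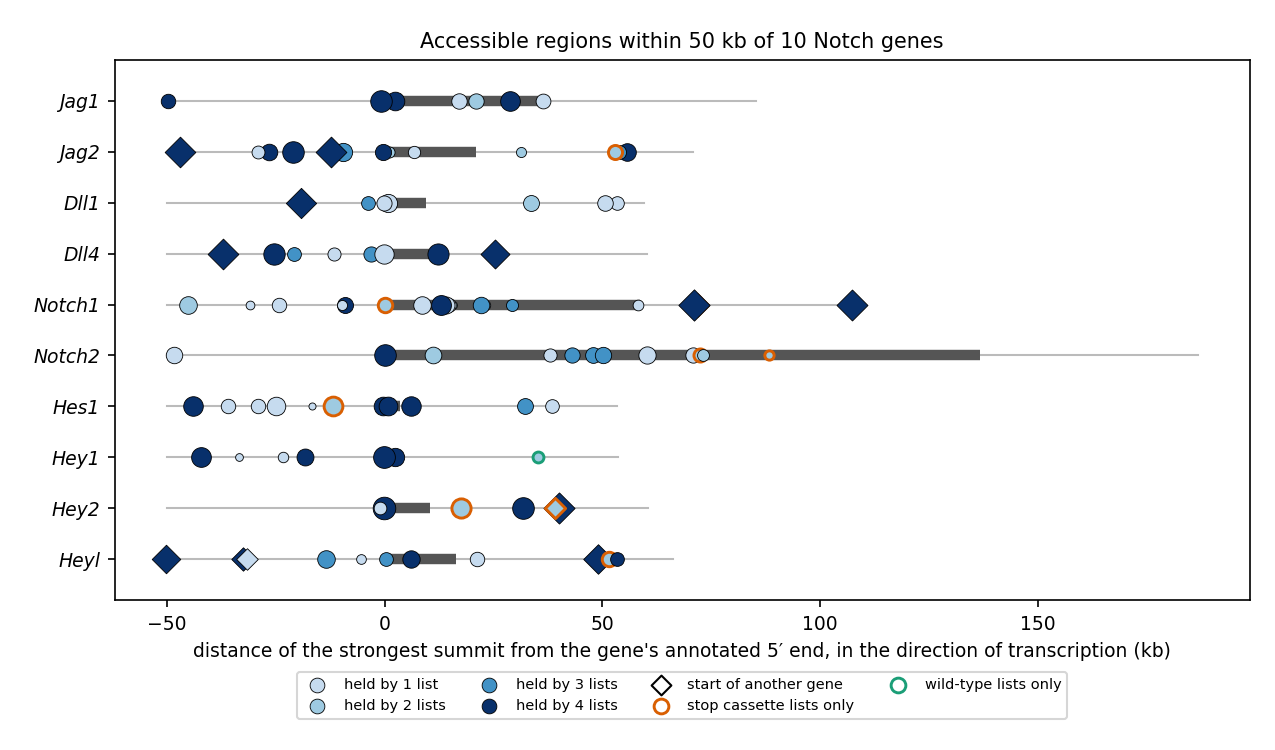
Regions within 50 kb of the 10 genes by distance of the strongest summit from the gene's annotated 5′ end (horizontal axis, kb, in the direction of transcription); thick bars are gene bodies, darker points are held by more lists, larger points have a higher mean percentile, diamonds lie at another coding gene's start, and orange or green outlines mark regions of 1 genotype only. Dark points lie away from the starts at Dll4, Jag2, Hey1 and Hey2, among others, and the Notch2 body carries no region held by all 4 lists beyond its start.

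Regions were called genotype-specific when both lists of a genotype held them and neither list of the other did. Stop cassette lists alone held 11 of 102 regions, or 10.8%, against 10.03% of all regions, and wild-type lists alone held 1, against 0.314%. The highest-ranked was a region 17.6 kb downstream of the Hey2 start, at chr10:30544739-30545358 and intergenic, with percentiles of 64.7 and 71.1. Of the 11 it alone met the same definition at equal list length. The next was an intergenic region 11.9 kb upstream of Hes1, at chr16:30052316-30052992, with 77.5 and 51.7. A further 2 lay at member starts, those of Dll4 and the Notch1 5′ end. Of the others, 2 flanked the Ncoa7 start in the Hey2 window, 1 lay at the start of Sec16a near Notch1, 1 in an intron of Pabpc4 near Heyl, 2 in Notch2 introns and 1 beyond the end of Jag2, 52.9 kb from its start. The wild-type region lay 35.2 kb downstream of the Hey1 start and was weak, with 16.0 and 15.4. More regions met the definition for stop cassette when a library was left out, but the share over all regions was not computed for those settings.

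Among the 36 regions held by every list, ranks were compared between the genotypes. This comparison was added once the values were known. Both stop cassette values exceeded both wild-type values in 16 of 36, against 38.9% of all such regions, and the reverse held in 0, against 3.45%. At equal list length the counts were 4 and 10 of 30, against 20.7% and 18.9%. The median difference was 6.33 points at the members and 5.59 over all regions as deposited, and -2.70 and -0.0319 at equal length. The members' median thus changed sign with list length.

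Regions with differences of 40 points or more stood at 3 places, which were picked after their values were seen. A region 26.5 kb upstream of Jag2, at chr12:114193927-114194494, had 79.5 and 81.1 in the stop cassette libraries and 19.5 and 14.3 in wild type. A region 49.7 kb upstream of Jag1, at chr2:136991403-136992369, had 58.8 and 68.0, then 7.46 and 5.13. A region that covers parts of an exon and an intron of Pabpc4, 53.3 kb from the Heyl start, had 65.6 and 38.6, then 0.430 and 17.2. These are 3 of 36 regions, against 4.48% of all regions held by every list, and 0.0922% had wild type higher by as much, a pattern met by 0 of the 36. The exact permutation p was 0.3333 at each. At equal list length the Jag2 region kept 68.7 and 60.5 in the stop cassette libraries and 19.5 in wild-type replicate 1, and the other wild-type library no longer listed it. The Jag1 region fell to 36.98 and 33.3 in the stop cassette libraries, with 7.46 in wild-type replicate 1 and no summit in the other. The Heyl region was then listed in 1 library of each genotype, at 47.5 in stop cassette replicate 1 and 0.430 in wild-type replicate 1. The part of the blood markers in these 3 differences was not tested. In the coding exon of Hey1, a region 2.29 kb from the start kept its groups apart at both list lengths, with 75.3 and 83.2, then 29.0 and 58.5 as deposited, and a difference of 26.5 points at equal length. So did the regions at the Notch2 start, at the Inpp5e start near Notch1 and at the Ncoa7 start near Hey2. Together these are the 4 of 30 regions with stop cassette higher at equal length, against 20.7% of all such regions.

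The other 45 genes of the pathway were read at their starts for comparison, from lists by role. Of these, 37 were held by all 4 lists, 3 by none, and the median of the mean best start percentile among the 37 was 88.4. By role, against the 89.7 over all genes held by every list, the median was 93.6 over 12 held genes for glycosyltransferases and processing enzymes, 89.2 over 10 for endocytosis, ubiquitination and inhibitors, and 87.1 over 9 for the nuclear complex and its cofactors. The highest 3 were Numb, an inhibitor of Notch inherited unequally by daughter cells, at 98.7, and the ligand-activating ubiquitin ligases Mib2 at 97.3 and Mib1 at 97.0. The lowest 3 of the 37 were the glycosyltransferase Lfng at 51.0, the inhibitory ligand Dll3 at 51.1 and the receptor Notch3 at 65.0. Ligands and ligand-like genes had a median of 67.7 over 3 held genes, again under the machinery. Hes2, Hes5 and Hes7 had no start summit in any list, unlike Hes1 and the Hey genes. Hes6 was held by every list at a mean of 93.8, and Hes3 by 2 lists. Both stop cassette values were higher at 17 of the 37, and both wild-type values at 1, again to be read against 41.2% and 4.34%.

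**Figure D5:**
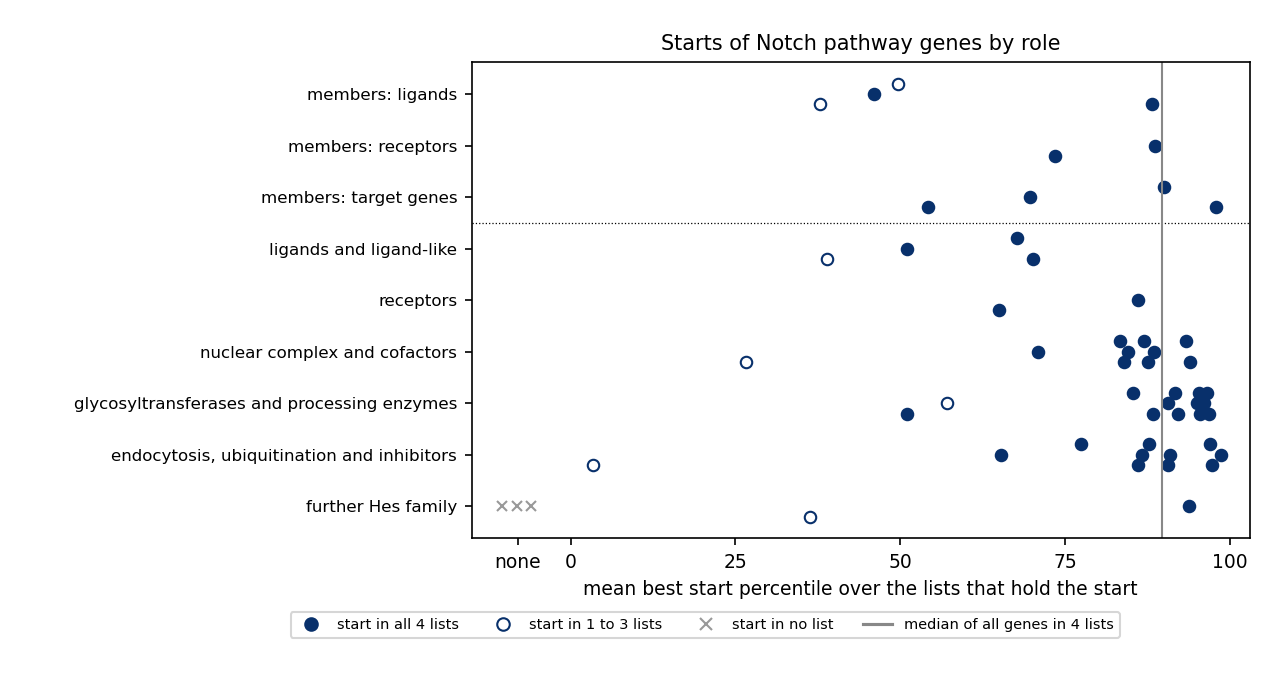
Mean best start percentile over the lists that hold the start (horizontal axis) for the 10 described genes (upper rows) and 45 other pathway genes (lower rows), by role; filled points are held by all 4 lists, open points by 1 to 3, crosses by none, and the grey line is the median over all genes in 4 lists (89.7). Processing enzymes and endocytic genes gather near the line, and ligands, Notch3 and most Hes genes lie to its left, with Hes6 to its right.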

How the data were processed

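ATAC-seq summit lists of 4 libraries (2 per genotype) were used as the authors deposited them, called per library on mm9. Per the submitters' processing notes, Bowtie2 2.2.6 and Picard were used, and the peak names record removal of duplicates and mitochondrial reads and a mapping quality of 30. The peak caller is not given in the sources used here. The score column in the deposited files was read as a −log10 q-value, because every list starts just above 1.30, the −log10 of 0.05. Percentiles, regions and counts were computed in Python 3.11.15 with numpy 2.4.6 from GENCODE M1 starts on NCBIM37, and chromosome lengths were compared before use. Genotypes were compared by a two-sided exact permutation test with Benjamini-Hochberg adjustment over all genes. The code for the holding of starts, the non-overlap calls and the region patterns was checked on simulated lists with clearly separated planted starts. Those lists were nearly equal in length, so the effect of unequal length was not simulated. The 10 genes and the lists were chosen with earlier results of these data known. All 10 are named, as are their strongest start and distal regions and every genotype-specific region. Of 45 other genes, the 3 highest, the 3 lowest, those in no list and the rest of the further Hes family are named. Alternatives covered list length, score threshold, distances, starts, overlap, scaling and omitted libraries. Some sequence is not reported here. Precision is limited by unknown depth and 2 libraries per genotype.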

Additional observations from a re-analysis of the deposited data

How the results depend on the processing

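The values come from summit lists without reads and 2 libraries per genotype, so a summit that is not listed cannot be told from a weak one. Shares of all genes or regions with a genotype pattern were computed as deposited and, for start and region ranks, at equal list length. Counts in the other settings, including omitted libraries, raw numbers and replicate blocks, have no such share beside them. Starts held by every list numbered 8, 5 with only scores above the pooled median, and 8 to 9 when a library was left out. Genes with stop cassette higher at the start numbered 3, with wild type higher 0. At equal list length these were 1 and 3, with the mean of all start summits wild type was higher at 1, and without 1 library they ranged from 3 to 6 and 0 to 2. At equal length the differences reversed for Jag2 (-14.3), Notch1 (-12.3), Hes1 (-0.543) and Hey1 (-1.42), with 500 bp from a start for Jag1 (2.37), and with the mean of all start summits for Jag1 (8.41), Notch1 (-15.5), Notch2 (-12.2) and Hey2 (-5.41). Without a library, Jag1 ranged from -10.4 to 0.229, Notch1 from -7.92 to 13.7, Jag2 from 0.0848 to 23.9, Hes1 from 4.27 to 24.5 and Heyl from -33.3 to -2.77.

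Class medians moved under a stricter score threshold (ligands 29.5, receptors 61.1, target genes 65.4), under equal length (target genes 71.9), under gene 5′ ends only (receptors 61.7) and under the mean of start summits (receptors 61.9, target genes 56.0). Left-out libraries gave 39.4 to 54.9, 78.6 to 84.7 and 78.1 to 83.3.

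Scaled summit counts had stop cassette higher at 1 gene and wild type at 0. Stop cassette was higher at 0 at equal length and within 25 kb, 2 when the nearest start had to be the member's, and 7 with raw numbers. Wild type was higher at 3 under the stricter threshold and at 1 within 25 or 100 kb, and left-out libraries gave 1 to 6 in each direction. The Hes1 difference reversed under the stricter threshold (-0.0362) and within 100 kb (-0.126).

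The 102 regions became 61 under the stricter threshold and 79 to 101 without a library. Those held by every list were 22 under the stricter threshold, 23 within 25 kb, 60 within 100 kb, 19 by nearest start, and 36 to 44 without a library. Stop cassette regions numbered 1 at equal length, 7 under the stricter threshold or within 25 kb, 18 within 100 kb, 5 by nearest start or with 500 bp extension, 20 with 100 bp extension, and 13 to 35 without a library. Wild-type regions numbered 0 under the stricter threshold or within 25 kb, 4 with 100 bp extension, and 1 to 4 without a library. Of regions held by every list, stop cassette ranked higher in 4 and wild type in 10 at equal length. Causes other than the lists' length and threshold were not tested.

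With the replicate number as a block, both pairs had stop cassette higher at 6 starts and wild type at 1, and scaled summits were higher in stop cassette at 2 genes and in wild type at 1. No share over all genes was computed for the block. Each stop cassette list was also longer than its same-numbered wild-type list, so these counts are not read as a genotype difference. Deviations of same-numbered lists correlated with r = 0.198 across genes, and with 2 pairs the samples share only a number.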
